A study of Mus musculus with 75 samples.

Results

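Liver tissue that the labels call uninvolved, taken at 10 months of age from mice labelled high-risk for liver tumors after maternal exposure to tributyltin (TBT), was compared with liver of vehicle mice of the same age. The libraries were chosen by their labels alone: 6 uninvolved and 6 vehicle libraries, 12 of the 75 in the series. All came from male wild-type C57Bl/6 mice and from sequencing batch 1. The exposed mice were reached through their dams, whose drinking water carried TBT (3.07 µM, a daily dose of 0.5 mg per kg) up to weaning. The labels give no other agent for the vehicle mice and do not say how uninvolved tissue was separated from tumor, how risk was assigned, or whether each library is a separate animal, so p-values measure the spread between these samples. A vehicle library labelled as a tumor was left out, and 5 livers of exposed mice labelled low-risk are given for comparison.

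TBT is an organotin compound that binds and activates RXR and PPARgamma, nuclear receptors that switch on genes of lipid storage in fat and other tissues. The adult liver makes cholesterol, bile acids and serum proteins, clears drugs with cytochrome P450 enzymes, and divides this work along the lobule from the portal tract to the central vein. In male rodents, pulses of growth hormone keep a set of male-biased liver genes on through STAT5. Resident macrophages (Kupffer cells), stellate cells, endothelium and bile ducts share the organ with hepatocytes, and all of them contribute to RNA from whole tissue.

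The libraries of the groups differed before any gene was compared. Total counts per library ran from 34.8 to 44.6 M (M, mega) in uninvolved and from 26.2 to 31.0 M in vehicle livers. Uninvolved libraries held 24676 to 28715 genes with a count, against 21078 to 22006 in vehicles, and neither range overlapped. The tumor-labelled vehicle library had 11.5 M counts, 14.1% of them mitochondrial. Mitochondrial genes took 4.2 to 5.85% of counts in uninvolved and 3.14 to 3.83% in vehicle libraries. Long noncoding RNA took 1.47 to 1.74% in uninvolved livers 1, 5 and 7, but 0.822 to 0.920% in livers 12, 3 and 6, whose share lay among the vehicles (0.732 to 0.947%). The libraries of livers 3 and 6 were nearly the same: their median chi-square per gene was 0.556, against 0.455 for sampling alone, 2.48 for the next closest uninvolved pair and 1.26 for the closest vehicle pair. They were therefore summed and counted as 1 sample (written 3+6), which leaves 5 uninvolved samples. Thinning all libraries to the smallest total left 9026 genes called. Beyond this count, the part of depth and of RNA makeup in the results below was not tested. Many list counts are therefore also given without livers 1, 5 and 7 or without livers 12 and 3+6. This split was added after the data were seen and follows the long noncoding shares above. Not every count that moved by over 1.5 times is listed.

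**Figure D1:**
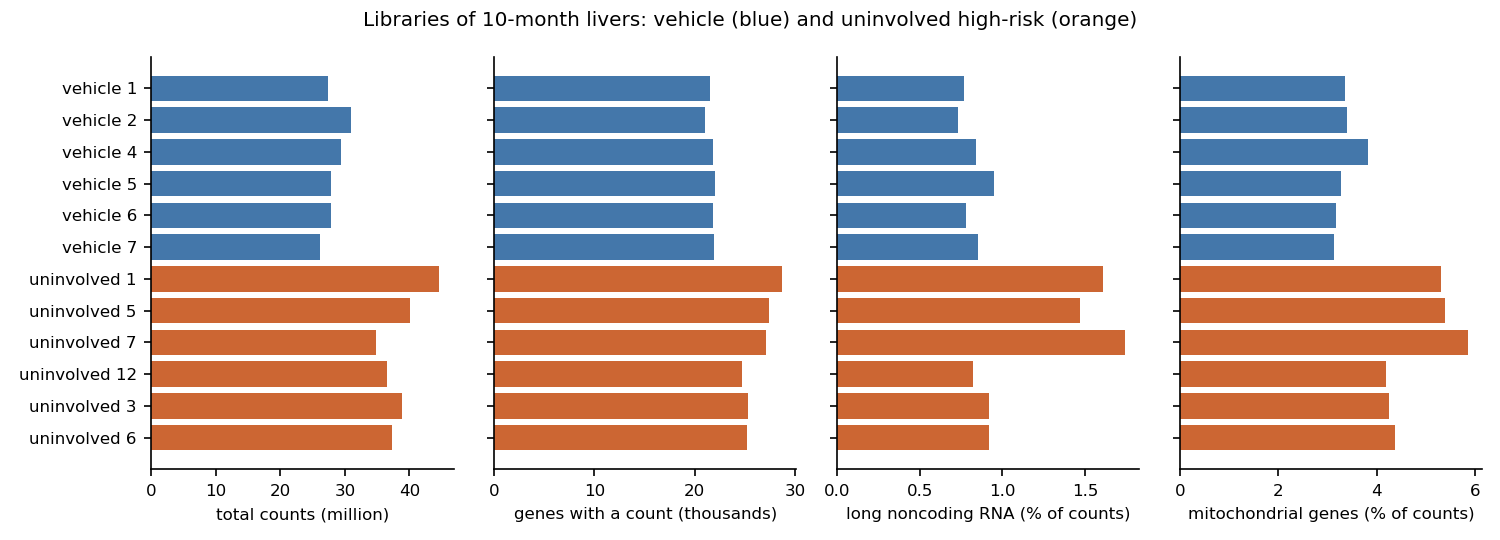
Total counts, genes with a count, and the share of counts from long noncoding RNA and from mitochondrial genes (horizontal bars) in 6 vehicle and 6 uninvolved high-risk libraries. Every uninvolved library is above every vehicle in total counts, genes and mitochondrial share, and livers 1, 5 and 7 stand above the others in long noncoding RNA.

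Most genes tested differed between the groups, in both directions. Of 16338 genes tested with edgeR's quasi-likelihood test, 9427 (57.7%) passed a Benjamini-Hochberg adjusted p of 0.05, 5093 (31.2%) higher and 4334 (26.5%) lower in uninvolved liver. The changes were lopsided in size: 2858 of the genes called were at least 2-fold higher and 621 at least 2-fold lower. Long noncoding genes were called higher in 894 and lower in 135, and protein-coding genes in 4018 and 3946. The filter on low counts could keep a gene through the uninvolved samples alone. The part of this in the lopsided sizes was not tested. In 5067 genes (31%) no uninvolved sample overlapped with any vehicle. Levels below are in CPM, counts of a gene relative to the total of its library, scaled with edgeR's TMM factors, which assume that most genes do not change. Differences are log2 fold changes of uninvolved against vehicle with their standard error (SE), so that 1 is a doubling. With scaling by total counts alone, 8176 genes (50%) were called higher and 1728 (10.6%) lower, and the median of all genes moved from 0.06 to 0.38. List medians below are read against 0.06, and those given with total counts alone against 0.38.

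The genes with the largest rises included an imprinted RNA, macrophage and matrix genes and a clock-controlled gene (10 genes by rule, in the plot of the largest changes). H19, an imprinted long noncoding RNA of fetal liver (chromosome 7, 142575529 to 142578143, GRCm38), was at 0.117, 0.44 and 0.543 CPM (lowest, median and highest) in vehicles. In uninvolved livers 1, 5, 7, 12 and 3+6 it was at 19, 24.4, 7.06, 45 and 532 CPM, a difference of 8.27 (SE 1.42, adjusted p 0.000264). The groups did not overlap, but the sample 3+6 set the mean: without it the difference was 5.88. Gpnmb, a glycoprotein of lysosome-rich macrophages (chromosome 6, 49036546 to 49070929), was at 0.494 to 1.59 CPM in vehicles (median 0.791). In the uninvolved samples, in the same order, it was at 39.8, 57.1, 42.1, 88.4 and 22.6 CPM (5.88, SE 0.39, adjusted p 2.24e-08).

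Noct, which encodes the clock-controlled enzyme nocturnin (chromosome 3, 51224447 to 51251644), was at 3.38, 4.12 and 8.37 CPM (lowest, median, highest) in vehicles. The uninvolved samples held 302, 390, 239, 159 and 77.3 CPM (5.6, SE 0.43, adjusted p 1.25e-07), so that the lowest of them still lay far above every vehicle. Shc2, an adaptor protein of receptor tyrosine kinases, rose by 5.57 (SE 0.45). Col5a2, a chain of type V collagen, rose by 4.78 (SE 0.29), from 1.69 to 3.84 CPM in vehicles to between 49.0 and 132 CPM. Mmp12, the macrophage elastase, rose by 4.61 (SE 0.52) and Mt2, a metal-binding metallothionein, by 4.62 (SE 0.55). Ubd, a ubiquitin-like protein induced by cytokines, rose by 4.29 (SE 0.46). Ly6d and Gstm3 complete the set and are described with their groups below. All 10 showed no overlap between the groups, which the rule required. Counting the tumor-labelled library among the vehicles ended the calls of H19 (1.26, adjusted p 0.567) and Gstm3 (1.61, adjusted p 0.205).

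The 10 largest falls by rule included male-biased genes and 3 Cyp2c genes. Hsd3b5, a male-biased steroid dehydrogenase (chromosome 3, 98618634 to 98630252), was at 187, 236 and 318 CPM (lowest, median, highest) in vehicles. It was at 5.78, 17.3, 9.2, 10.8 and 2.73 CPM in the uninvolved samples (-4.79, SE 0.46, adjusted p 1.02e-06), and no sample came near the vehicle range. Cd163, the haemoglobin scavenger receptor of resident macrophages (chromosome 6, 124304656 to 124330527), was at 13.1, 23.9 and 26.4 CPM in vehicles. Its uninvolved values were 1.37, 0.819, 1.27, 0.609 and 1.42 CPM (-4.33, SE 0.24, adjusted p 1.3e-09). In bulk tissue, fewer cells of a type and less RNA per cell cannot be told apart. Dct, a dopachrome tautomerase better known from pigment cells, fell by 4.38 (SE 0.23), from 9.52 to 14.6 CPM in vehicles to 0.398 to 0.711 CPM. Susd4, a complement regulator, fell by 3.55 (SE 0.32), and the phosphatase gene Acpp by 3.04 (SE 0.34). Mup15, a major urinary protein gene, fell by 5.10 (SE 1.07, and by 6.25 without uninvolved 5), but Mup genes are near-identical copies whose reads cannot be assigned with certainty.

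**Figure D2:**
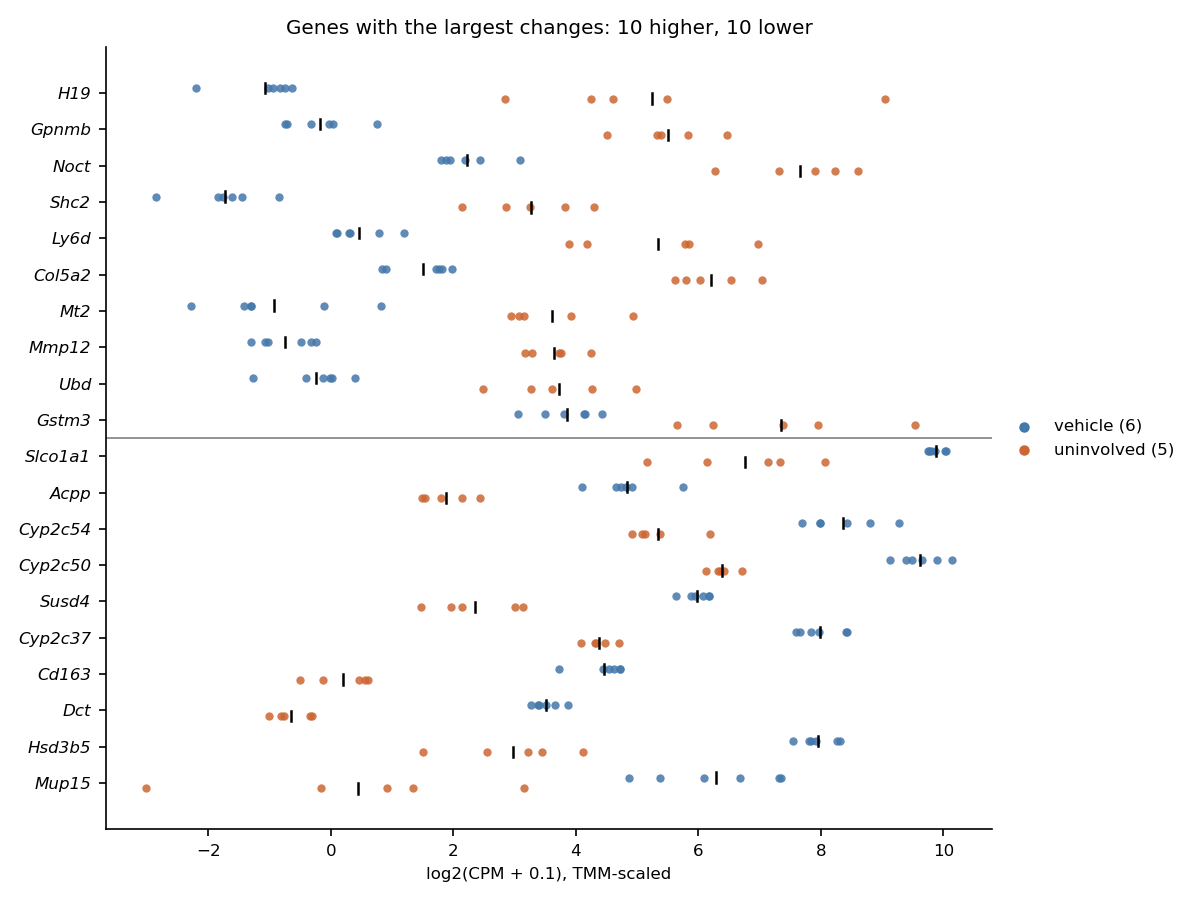
Levels of the 10 genes with the largest rises and the 10 with the largest falls, as log2 of CPM + 0.1, in 6 vehicle (blue) and 5 uninvolved (orange) samples, with a bar at each group mean. The groups are apart in every gene, a condition of the choice, and H19 in the sample 3+6 lies far above the other 4 uninvolved samples.

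Gene lists were read by how many members passed and in which direction, beside 31.2% higher and 26.5% lower among all genes (plot of the pathway lists). Of 17 nuclear receptors 10 fell and 2 rose, with a median of -0.35 (-0.04 with total counts alone, where 3 fell and 3 rose). Leaving out livers 1, 5 and 7 left 6 lower. The number that rose was 1 on leaving out uninvolved 12 or 3+6 or vehicle 1, 2, 4 or 6, and 0 rose without livers 12 and 3+6. Rxra, the main hepatic RXR, was at 470 ± 40.8 CPM (SD, n = 6) in vehicles and 369 ± 52.9 (n = 5) in uninvolved livers (-0.35, SE 0.10, adjusted p 0.0081). This call was lost without livers 1, 5 and 7 (adjusted p 0.278) and with total counts alone (adjusted p 0.689). Pparg did not pass (0.23, SE 0.31, adjusted p 0.539), at 11.6 CPM in vehicles and 13.6 in uninvolved livers. Ppara, the receptor that drives fatty acid oxidation, fell by 0.95 (SE 0.10, adjusted p 1.3e-06), from 183, 234 and 270 CPM (lowest, median, highest) to 127, 105, 114, 126 and 113 CPM, with no overlap. The bile acid receptor gene Nr1h4 (FXR) fell by 0.86 and the xenobiotic receptor gene Nr1i3 (CAR) by 1.89. The related xenobiotic receptor gene Nr1i2 (PXR) rose by 0.33.

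Part of the fatty acid oxidation genes fell, and single lipid droplet and uptake genes rose steeply. Of 18 PPARalpha targets and oxidation enzymes 10 fell and 0 rose (median -0.36, and -0.05 with 3 lower under total counts alone). Without livers 1, 5 and 7, 3 fell, and without livers 12 and 3+6, 10. Acadvl, the first enzyme of long-chain oxidation, fell by 0.79 (SE 0.08) and the thioesterase gene Acot1 by 1.84. The rate-setting transporter gene Cpt1a did not pass (-0.09, SE 0.11, adjusted p 0.5).

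Among 15 lipid droplet genes 4 rose and 7 fell (median -0.26, and 0.06 with 6 higher and 1 lower under total counts alone). Without livers 1, 5 and 7 none of the 15 fell (median -0.05), and without livers 12 and 3+6, 7 fell. Cidec, which fuses droplets in fat cells and fatty liver, was at 1.53, 4.43 and 4.99 CPM in vehicles and at 54.1, 26.4, 16.7, 54.3 and 31.0 CPM in uninvolved samples (3.24, SE 0.42, adjusted p 1.55e-05). Every uninvolved sample was above every vehicle. Plin2, the common droplet coat protein of hepatocytes, overlapped between groups at 460 to 1040 CPM in vehicles and 348 to 796 in uninvolved livers (-0.72, SE 0.23, adjusted p 0.0143). Its call was lost without livers 1, 5 and 7 and with total counts alone. Of 10 lipid uptake genes 3 rose and 3 fell. Lpl, the lipoprotein lipase that adult hepatocytes make little of, rose from 13.1, 19.4 and 22.7 CPM to 103, 98.3, 86.3, 123 and 185 CPM (2.63, SE 0.18, adjusted p 9.99e-09). The fatty acid transporter gene Cd36 did not pass (0.90, SE 0.46, adjusted p 0.104), with 2 of its vehicles (101 and 126 CPM) inside the uninvolved range of 98.2 to 216 CPM. It passed with total counts alone (1.21, adjusted p 0.032) and in a fit of the 2 groups alone (adjusted p 0.0318).

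Enzymes that build cholesterol fell almost as a block. The sterol regulatory element is the DNA site through which SREBP factors switch these genes on when sterols are low. Of 24 genes of cholesterol synthesis and uptake, 22 fell and 0 rose (median -1.27), and 15 showed no overlap. Total counts alone left 21 lower, and 20 fell without livers 1, 5 and 7 and 23 without livers 12 and 3+6, where 23.6% and 29.5% of all genes fell. Hsd17b7, a late step of the pathway, was at 87.0, 101 and 121 CPM in vehicles and at 35.6, 27.8, 32.8, 37.6 and 35.0 CPM in uninvolved samples (-1.6, SE 0.1, adjusted p 7.38e-09). Hmgcs1, an early step, was at 235 to 489 CPM in vehicles (median 411) and at 229, 128, 110, 129 and 191 CPM in uninvolved samples (-1.30, SE 0.22, adjusted p 0.000115). The 2 groups lay apart by a narrow gap, between uninvolved liver 1 and the lowest vehicle. Fdps, which makes farnesyl diphosphate, fell by 2.15 (SE 0.29), the most in the list. Sqle, the squalene epoxidase, overlapped in 1 sample (3+6, 45.5 CPM) with vehicles of 31.8 to 100 CPM (-1.6, SE 0.35), and its call was lost without livers 1, 5 and 7 (adjusted p 0.0671). Insig1, which holds SREBP back when sterols are high, fell by 1.28. Srebf2, the gene of the transcription factor itself, did not pass (-0.03, SE 0.11).

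The promoter table of RefSeq (GRCm38.p6) held 16 of the 24 cholesterol genes. The sterol regulatory core TCACNCCAC, searched on both strands in the 250 bases before each start, was found in 1 of the 16 (6.25%) and in 1.22% of all 27025 genes of the table. The stretch of Hmgcs1 that holds it is shown because this gene lies in the block that fell (chr13:119690194-119690242, plus strand, 157 to 109 bases before the start, with the core in capitals).
Hmgcs1: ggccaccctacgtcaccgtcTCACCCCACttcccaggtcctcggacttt
The letters in this window describe the sequence and do not show binding.

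Fatty acid synthesis fell as well, with more spread among vehicles. Of 18 lipogenic genes 11 fell and 2 rose (median -0.97, and -0.67 with total counts alone), but 3 fell without livers 1, 5 and 7, where 2 samples remain. Dgat2, which finishes triglycerides, fell by 1.28 (SE 0.10), from 530 to 671 CPM in vehicles to 201 to 287 CPM. Vehicles differed widely in the carbohydrate-induced Thrsp (21.8, 104 and 387 CPM), which was at 37.0, 31.9, 8, 32.7 and 28.3 CPM in uninvolved samples (-2.50, SE 0.68, adjusted p 0.00634) and overlapped. Fasn (-0.82, SE 0.49, adjusted p 0.16) and Scd1 (-0.97, SE 0.42, adjusted p 0.0585) did not pass. Scd1 passed on leaving out uninvolved 3+6 or vehicle 4, 5 or 7 (adjusted p 0.0224 to 0.0475) and with DESeq2 (0.0335). Its relative Scd2, the desaturase of brain and fetal liver, rose by 2.54 (SE 0.52): vehicles held 7.63 to 12.2 CPM and the uninvolved samples 27.6, 24, 13.2, 38.6 and 176 CPM. Mlxipl, which encodes the sugar-sensing factor ChREBP, was the other gene that rose (0.43), and 1 of the 2 passed without uninvolved 1, 5 or 7 or vehicle 1, 2, 4 or 7.

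Bile acid genes fell among enzymes and importers, while exporters moved both ways. Of 18 members 9 fell and 4 rose (median -0.68). Enzymes and uptake carriers were lower: Cyp8b1, which sets the share of cholic acid, fell by 1.5 (SE 0.2), the sodium-bile acid importer Slc10a1 by 1.37, and the organic anion importers Slco1a1 and Slco1b2 by 2.80 and 1.89. Slco1a1 was at 858, 912 and 1060 CPM in vehicles and at 141, 267, 162, 70.8 and 35.7 CPM in uninvolved samples. The bile salt export pump gene Abcb11 fell by 0.70. The 4 that rose also encode exporters, namely Abcc4 (1.78, SE 0.17), Slc51b (2.95, SE 0.63, from under 1 CPM) and the sterol pair Abcg5 and Abcg8 (0.76 and 0.54). Cyp7a1, the rate-limiting enzyme of bile acid synthesis, overlapped and did not pass (-0.67, SE 0.43, adjusted p 0.193).

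**Figure D3:**
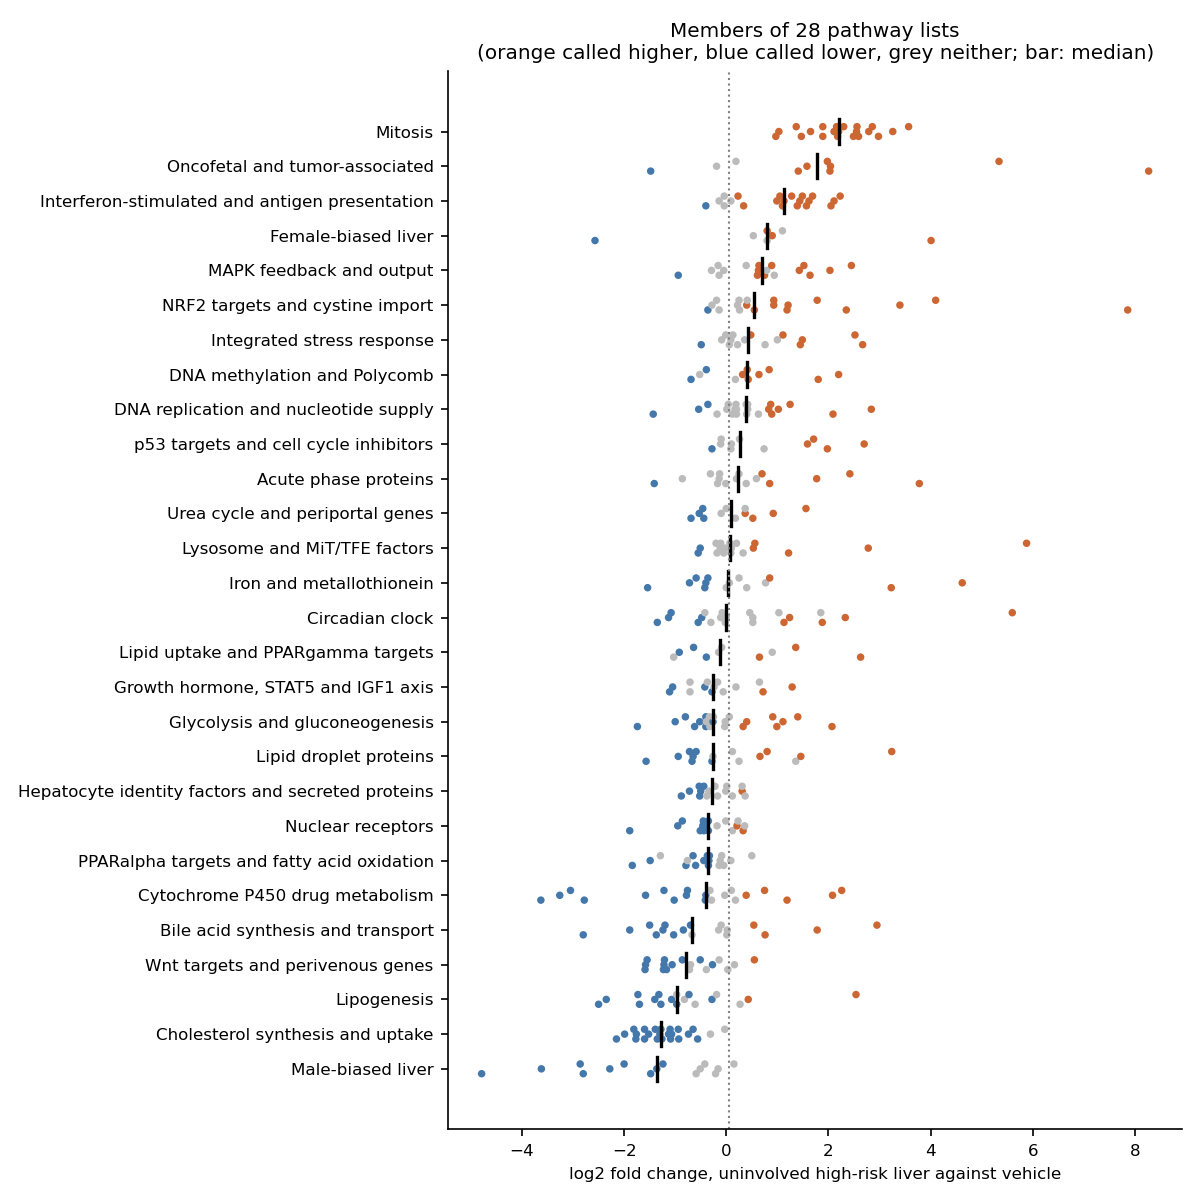
Log2 fold changes (horizontal axis) of the tested members of 28 pathway lists, uninvolved against vehicle, with calls in color, a bar at each list's median and a dotted line at the median of all genes (0.06). Male-biased and cholesterol genes lie lowest and mitosis genes highest, and the right-most point of the NRF2 row is Slc7a11, whose place depends on vehicles with at most 1 count.

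Genes that mark the male liver were strongly lower. Of 15 male-biased genes 9 fell and 0 rose (median -1.36, and -1.07 with 9 lower and 1 higher under total counts alone). Mup3 was at 8200, 8870 and 9950 CPM in vehicles and at 1080, 1880, 1800, 893 and 500 CPM in uninvolved samples (-2.86, SE 0.26, adjusted p 2.24e-07). Of 30 tested Mup genes and pseudogenes 25 fell and 0 rose (median -2.41), with the caution on copies given above. Elovl3, a fatty acid elongase, fell by 2.0 and Cyp2d9 by 1.48, but Cyp4a12a, another classic male gene, did not pass (-0.21, SE 0.21, adjusted p 0.406), nor did Mup20 (-0.42). Moxd1 fell by 3.62 (SE 1.30, adjusted p 0.0288) with overlap, since 1 vehicle had 6.65 CPM and the others reached 151 CPM.

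Most female-biased genes stayed too low to test: 7 of 15 were tested, of which 3 rose and 1 fell. Cyp2b9 was at 0.40 CPM in vehicles and 0.0675 in uninvolved livers on average, and Sult2a1 at 0.0245 and 0.0115 CPM. Cyp2a4 rose by 4.01 (SE 0.64), from 1.23 to 3.09 CPM in vehicles to 10.8, 17.5, 8.25, 28 and 101 CPM. Its reads may be shared with the near-identical Cyp2a5, and without the sample 3+6 the difference was 2.98. In the axis that reads growth hormone, 4 of 14 genes fell and 2 rose (median -0.26, and 0.07 with total counts alone). The receptor Ghr fell by 1.05 (SE 0.12), from 784, 861 and 968 CPM to 445, 539, 452, 369 and 295 CPM. Igfals, the carrier of circulating IGF1, fell by 1.11, while Igf1 itself did not pass (-0.24, SE 0.15, adjusted p 0.186). It passed without uninvolved liver 7 (-0.38, adjusted p 0.0362) and without livers 1, 5 and 7 (-0.58, adjusted p 0.00618). The STAT5 letters TTCNNNGAA were found in 1 of 10 male-biased genes with a promoter in the table (10%) and in 8.13% of all genes. That gene was Moxd1 (chr10:24223347-24223395, plus strand, 170 to 122 bases before the start), shown with the match in capitals.
Moxd1: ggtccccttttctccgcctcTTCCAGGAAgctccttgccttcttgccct

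Drug-metabolizing P450 genes moved in both directions. Of 21 members 11 fell and 5 rose (median -0.40), and 2 rose without livers 12 and 3+6. The Cyp2c cluster on chromosome 19 held the largest falls. Cyp2c37 (39992424 to 40012243) was at 193, 240 and 345 CPM in vehicles and at 20.1, 16.8, 19.9, 22.3 and 26 CPM in uninvolved samples (-3.63, SE 0.18, adjusted p 6.3e-10). The uninvolved samples lay within a narrow band, far under the vehicles. Its neighbours Cyp2c50, Cyp2c54 and Cyp2c29 fell by 3.26, 3.05 and 2.78, while Cyp2c38 (-0.03) and Cyp2c39 (0.10) of the same family did not pass, and Cyp2c55 rose by 2.26. These paralogs resemble each other, so reads may be split among them. Cyp3a11, the main drug-inducible enzyme and a PXR target, rose by 2.08 (SE 0.42, adjusted p 0.000681), from 484, 623 and 964 CPM to 2760, 2430, 1270, 3210 and 4420 CPM. The call was lost with the tumor-labelled library among the vehicles (1.09, adjusted p 0.159). Por, the electron donor of all these enzymes, rose by 0.75.

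Genes of the zone around the central vein fell, and those of the portal side were mixed. Of 18 Wnt target and perivenous genes 11 fell and 1 rose (median -0.79, and -0.47 with 8 lower under total counts alone). Glul, the glutamine synthetase of the last hepatocytes before the vein, fell by 1.06 (SE 0.23, adjusted p 0.00104), from 930, 1280 and 1530 CPM to 798, 569, 581, 757 and 293 CPM, a call lost when tumors joined the fit (adjusted p 0.067). Oat and Rgn fell by 1.59 and 1.55, and the ethanol-metabolizing Cyp2e1 and caffeine-metabolizing Cyp1a2 by 1.22 and 1.58. The direct Wnt targets Axin2 (0.16, adjusted p 0.577), Lgr5 (-0.39, adjusted p 0.0995) and Nkd1 (0.03) did not pass. Of 12 urea cycle and periportal genes 4 rose and 4 fell (median 0.09), and 2 rose without livers 12 and 3+6. Cdh1, the E-cadherin of periportal hepatocytes and ducts, rose by 1.56 (SE 0.18), from 22.7 to 46.5 CPM to between 77.8 and 145 CPM. Ass1 rose by 0.52 and Cps1 fell by 0.53, both with overlap, and the fall of Cps1 was lost with total counts alone and without livers 1, 5 and 7. The rise of Ass1 was lost without livers 12 and 3+6 (adjusted p 0.136).

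The summed level of 16 hepatocyte identity factors and secreted proteins ran from 134000 to 155000 CPM in vehicles and from 80900 to 115000 in uninvolved samples, with no overlap. All protein-coding genes summed on the same TMM scale also lay apart, at 1020000 to 1110000 CPM in vehicles and 737000 to 917000 in uninvolved samples. A lower sum was therefore not particular to this list. Of the 16, 6 fell and 1 rose (median -0.28, and 0.04 with 2 lower and 6 higher under total counts alone), and 3 fell without livers 1, 5 and 7. Hnf4a, the master factor of hepatocytes, was at 517 to 737 CPM in vehicles and 479 to 735 in uninvolved livers (-0.01, SE 0.13, adjusted p 0.971), and passed as higher with total counts alone (0.30). Cebpa, a factor of metabolic hepatocyte genes, fell by 0.88 (SE 0.11) from 357 to 400 CPM to 169 to 261 CPM, and by 0.57 with total counts alone. Alb was at 79800 to 99500 CPM in vehicles and 45200 to 71900 in uninvolved livers (-0.52, SE 0.12), a call lost with total counts alone (-0.21) and without livers 1, 5 and 7 (adjusted p 0.0536).

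Of 22 genes of glycolysis and gluconeogenesis 7 rose and 8 fell (median -0.26, and 0.05 with total counts alone), shares near those of all genes, and 4 fell without livers 1, 5 and 7. Hexokinases Hk1 and Hk2, platelet phosphofructokinase Pfkp, its regulator Pfkfb3 and Pkm rose by 1.11, 1.40, 2.07, 0.99 and 0.91. Pfkp was at 2.27, 2.66 and 4.44 CPM in vehicles and at 11.6, 11.5, 10.8, 14 and 16.5 CPM in uninvolved samples (SE 0.17, adjusted p 6.27e-08). The liver pyruvate kinase gene Pklr and the glucose transporter gene Slc2a2 fell by 1.74 and 0.80. Pck1, of gluconeogenesis, did not pass (0.06).

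Mitosis genes were higher in all 21 members, from a very low level. The median was 2.20, and 21 of 21 rose where 31.2% of all genes did, yet only 2 of 21 showed no overlap. Ccnb1, the cyclin of mitotic entry, was at 0.0783, 0.133 and 0.623 CPM in vehicles and at 1.62, 0.431, 0.273, 0.953 and 7.39 CPM in uninvolved samples (3.26, SE 0.76, adjusted p 0.00164). Uninvolved livers 5 and 7 lay within the vehicle range, and without the sample 3+6 the difference was 1.88. Prc1, a protein of the dividing spindle, did not overlap, with 0.157 to 0.896 CPM in vehicles and 5.45, 1.6, 1.22, 2.38 and 9.83 CPM in uninvolved samples (2.79, SE 0.53, and 2.17 without 3+6). Mki67, the proliferation marker, was at 1.59 to 7.67 CPM in vehicles and at 25.5, 11.4, 7.71, 7.18 and 36.5 CPM in uninvolved samples (2.20, SE 0.45). By the median over the list, relative to the vehicle mean, the samples stood at 2.39, 0.99, 0.36, 1.53 and 3.47, against -0.53 to 0.95 in vehicles. Liver 7 therefore lay among the vehicles. With the tumor-labelled library among the vehicles 2 of the 21 passed, where 18.8% of all genes were called higher and 17.5% lower.

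**Figure D4:**
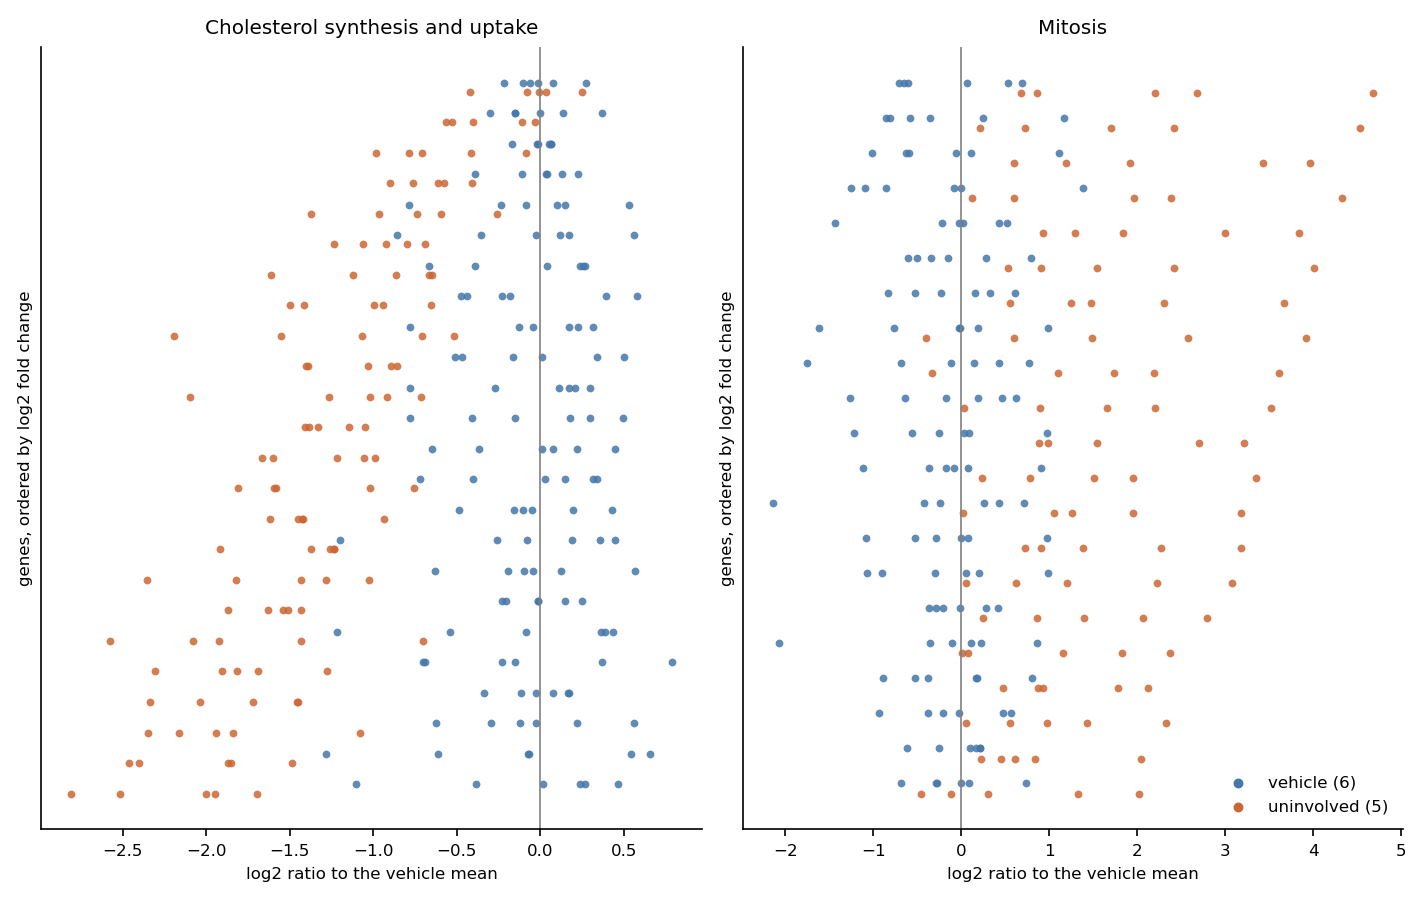
Log2 ratio to the vehicle mean (CPM + 0.1) of each cholesterol gene (left) and each mitosis gene (right), 1 gene per line in order of fold change, with vehicles in blue and uninvolved samples in orange. The cholesterol genes of most uninvolved samples form a band below 0, while the mitosis genes of the same samples spread from the vehicle range to far above it.

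Among genes of DNA replication fewer passed. Of 23 tested 7 rose and 3 fell (median 0.39), and 13 rose and 1 fell without livers 1, 5 and 7. Ccnd1, the growth-factor cyclin of G1, rose by 2.84 (SE 0.32), from 6.07 to 13.6 CPM to between 44 and 108 CPM. Mcm5 and Mcm6 of the replicative helicase rose by 1.25 and 1.02, but Mcm2 did not pass (0.63, SE 0.27, adjusted p 0.0511), at 3.44 CPM in vehicles and 5.31 in uninvolved livers. It passed without uninvolved 5 or 7 or vehicle 1 (adjusted p 0.00985 to 0.0301) and with DESeq2 (0.0392). Pcna, the replication clamp, fell by 0.36 (SE 0.08), a call lost with total counts alone (-0.05). Of 11 p53 targets and cell cycle inhibitors 4 rose and 1 fell. The fall was lost without uninvolved 12 or 3+6 or vehicle 1 or 6, and 7 rose and 3 fell without livers 1, 5 and 7. Cdkn1a, which encodes the inhibitor p21, rose by 2.70 (SE 0.51), with vehicles at 0.888, 1.59 and 6.44 CPM and uninvolved samples at 4.66, 15.3, 12.5, 13.2 and 25.2 CPM. It overlapped through vehicle 5, without which the difference was 3.43, and its call was lost with the tumor-labelled library among the vehicles (0.60, adjusted p 0.612). Phlda3 and Eda2r, both p53 targets, rose by 1.98 and 1.71, but Mdm2 (-0.11) and Bax (0.26) did not pass. Cdkn2a was too low to test, at 0.263 and 0.254 CPM.

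Promoters of cell cycle genes are known for a TTTGAA element near the start (the cell cycle homology region, CHR) and for CCAAT boxes. Among 16 mitosis genes in the promoter table, TTTGAA was found in 8 (50%) and CCAAT in 14 (87.5%), on either strand in the 250 bases before the start, against 18.3% and 37.5% of all genes. The windows of 3 members that rose are shown with both motifs in capitals, ATTGG being CCAAT on the other strand. They cover chr9:70421555-70421741 (minus strand, Ccnb2), chr4:118437344-118437416 (minus strand, Cdc20) and chr10:69352913-69353140 (minus strand, Cdk1). TTTGAA begins 18 bases before the start in Cdc20, and 71 and 15 bases before it in Cdk1. In Ccnb2 it begins 167 bases before the start, ahead of the CCAAT boxes, and is not the near-start element described above.
Ccnb2: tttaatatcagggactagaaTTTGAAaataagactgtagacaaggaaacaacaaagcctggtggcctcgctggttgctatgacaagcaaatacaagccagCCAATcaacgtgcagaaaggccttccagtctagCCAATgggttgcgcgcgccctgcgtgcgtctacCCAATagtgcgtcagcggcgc
Cdc20: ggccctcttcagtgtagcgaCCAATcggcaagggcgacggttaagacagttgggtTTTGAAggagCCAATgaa
Cdk1: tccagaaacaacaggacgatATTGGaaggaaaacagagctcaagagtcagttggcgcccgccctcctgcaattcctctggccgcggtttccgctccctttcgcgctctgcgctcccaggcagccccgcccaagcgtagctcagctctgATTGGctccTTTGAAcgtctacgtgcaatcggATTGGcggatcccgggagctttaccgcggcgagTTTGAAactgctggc
Ccnb2, Cdc20 and Cdk1 rose by 2.18 (SE 0.50), 2.86 (SE 0.72) and 2.30 (SE 0.56). All 3 had their highest level in the sample 3+6 (6.34, 14.1 and 9.13 CPM) and their lowest uninvolved level in liver 7 (0.646, 0.671 and 0.721 CPM), inside the vehicle range.

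Detoxification genes rose in part. NRF2 is the transcription factor of the antioxidant response, and KEAP1 holds it down. Of 19 NRF2 targets 11 rose and 1 fell (median 0.55). Slc7a11, the cystine importer, had at most 1 count in any vehicle (0 to 0.0418 CPM) and was at 2.87, 2.50, 2.44, 3.28 and 7.91 CPM in uninvolved samples. Gstm3, a glutathione transferase (chromosome 3, 107963696 to 107969283), was at 8.27, 15.7 and 21.5 CPM in vehicles and at 166, 75.8, 50.4, 247 and 746 CPM in uninvolved samples (4.10, SE 0.60, adjusted p 5.46e-05, and 3.17 without 3+6). Gsta1, Gsta2 and Gstm1 rose by 3.40, 2.35 and 1.19, with the reservation that transferase genes resemble each other. Nqo1, a standard NRF2 target, rose by 0.93 (SE 0.27, adjusted p 0.0081), but not without livers 12 and 3+6 (0.46, adjusted p 0.0901). The glutathione synthesis genes Gclc (-0.28) and Gclm (-0.19) and haem oxygenase Hmox1 (0.22) did not pass. Without livers 1, 5 and 7, 14 of the list rose where 25.5% of all genes did. Without livers 12 and 3+6, 9 rose, against 35.4% of all genes.

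The core of the antioxidant response element, TGANNNNGC, was found in 11 of 16 NRF2 list genes in the promoter table (68.8%) and in 38.7% of all genes. A short motif of this kind is common. It is shown in Gstm3 and Gsta1, which rose, and in Gclm, which did not pass, with the match in capitals (on the other strand in Gclm). The stretches are chr3:107969345-107969417 (minus strand), chr9:78230523-78230571 (plus strand) and chr3:122245403-122245451 (plus strand).
Gstm3: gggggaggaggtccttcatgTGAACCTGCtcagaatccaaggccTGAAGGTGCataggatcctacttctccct
Gsta1: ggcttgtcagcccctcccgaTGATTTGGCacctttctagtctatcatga
Gclm: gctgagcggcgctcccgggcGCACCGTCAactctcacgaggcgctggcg

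Of 16 genes of the integrated stress response, the program that ATF4 runs, 6 rose and 1 fell (median 0.42). The share that rose was near the 31.2% of all genes. Without livers 12 and 3+6, 4 rose and 2 fell, where 35.4% of all genes were higher. Atf3 rose by 2.67 (SE 0.35), from 0.391 to 1.05 CPM to between 2.96 and 9.44 CPM, and Nupr1 by 2.52. Ddit3 (0.09), Asns (1.0, adjusted p 0.208) and Chac1 (-0.01) did not pass, and Atf4 itself fell by 0.49. Among 18 lysosome and MiT/TFE genes 5 rose and 2 fell (median 0.08). Without livers 1, 5 and 7, 9 rose, and 8 fell without livers 12 and 3+6. Beside Gpnmb, Rragd, a lysosomal GTPase, rose by 2.78 (SE 0.40) and Tfe3 by 0.56 (SE 0.11). Most structural lysosome genes did not pass, among them Ctsb (0.07), Ctsd (-0.12) and Lamp1 (-0.11). Their CLEAR letters TCACGTG were in 3 of 14 promoters of the list (21.4%), against 3.58% of all genes, and none of the 3 genes (Mcoln1, Ctsd and Lamp1) passed the test.

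Some tumor-associated genes were higher in tissue labelled uninvolved. Of 16 oncofetal and tumor-associated genes 10 were tested, of which 7 rose and 1 fell (median 1.78). The filter on low counts could keep a gene through the uninvolved samples alone, so these counts and the median lean upward. Summed over the list, 3+6 held 885 CPM and the other uninvolved samples 108 to 199, against 31.4 to 62.1 in vehicles. Ly6d, a surface protein of the Ly6 family (chromosome 15, 74762056 to 74763620), was at 0.959, 1.14 and 2.20 CPM in vehicles and at 55.2, 18.1, 14.8, 57.6 and 125 CPM in uninvolved samples (5.34, SE 0.55, adjusted p 2.33e-06). Golm1, Sox4 and Slpi rose by 2.04, 2.03 and 1.98, and Igf2bp3 by 1.41. Igf2bp2, of the same RNA-binding family, fell by 1.48 (SE 0.21). Afp, the fetal albumin relative, did not pass (0.19, SE 0.14, adjusted p 0.252), nor did Gpc3 (-0.19, SE 0.21). Beside these values, 7 tumors of exposed mice held 5.34, 226 and 1390 CPM (lowest, median, highest) of H19 and 15.1, 164 and 309 CPM of Ly6d. The ranges of uninvolved liver and tumor overlap in both. Whether the uninvolved pieces contained tumor cells was not tested.

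Of 18 tested genes of MAPK feedback and output 10 rose and 1 fell (median 0.69). Dusp5, a phosphatase of ERK, rose by 2.03 (SE 0.32), Jun by 1.52 and Etv5 by 0.75. Dusp6 (-0.29), Spry4 (-0.16) and the receptor gene Egfr (-0.05) did not pass, and Met, the receptor of hepatocyte growth factor, fell by 0.94 (SE 0.08, adjusted p 1.26e-07), from 170 to 226 CPM to 96.9 to 108 CPM. Of 11 DNA methylation and Polycomb genes 7 rose and 2 fell (median 0.41), and 4 rose without livers 1, 5 and 7. Uhrf1, which guides DNA methylation at replication, rose by 1.80 and the demethylase Tet1 by 2.20 (SE 0.41). Suz12, a core Polycomb subunit, fell by 0.69 (SE 0.12), and its partner Eed by 0.39, while the catalytic Ezh2 rose by 0.41 (adjusted p 0.0144), but not without livers 1, 5 and 7 (adjusted p 0.277). The rise of Dnmt1 (0.32, adjusted p 0.0473) was lost on leaving out uninvolved 1, 12 or 3+6, or vehicle 2, 4, 5, 6 or 7 (adjusted p 0.0568 to 0.177).

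Interferon and antigen presentation genes rose broadly. Of 21 members 16 rose and 1 fell (median 1.13), and 14 showed no overlap. Usp18 was at 3.99, 5.14 and 5.89 CPM in vehicles and at 32.8, 15.6, 18.3, 17.7 and 23.8 CPM in uninvolved samples (2.11, SE 0.22, adjusted p 1.1e-06). Ifi44, Ifit1 and Isg15 rose by 2.23, 1.49 and 1.69. Class II genes H2-Ab1, H2-Aa and H2-Eb1 rose by 1.44, 0.99 and 1.28, whereas class I H2-K1 fell by 0.40, a call lost with total counts alone and without livers 1, 5 and 7, and H2-D1 (-0.14) did not pass.

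Acute phase, metal and clock genes moved one by one. Of 16 acute phase genes 5 rose and 1 fell (median 0.22), and 3 rose on leaving out uninvolved 12, uninvolved 3+6, vehicle 1 or vehicle 6, and 1 without livers 12 and 3+6. Lcn2, a siderophore-binding protein, was at 0.935, 7.12 and 21.5 CPM in vehicles and at 85.8, 35.2, 19.9, 35.1 and 361 CPM in uninvolved samples (3.78, SE 1.04, adjusted p 0.00689), whereas Saa1 (0.39), Orm1 (-0.17) and Hp (-0.14) did not pass. Of 14 iron and metal genes 3 rose and 6 fell (median 0.03), and 3 fell without livers 1, 5 and 7. Mt1 and Mt2 rose by 3.23 and 4.62 (4.02 and 5.28 without vehicle 7), and the iron hormone gene Hamp by 0.85, while Slc30a10, which exports manganese, fell by 1.54 (SE 0.23). Of 21 clock genes 5 rose and 5 fell (median 0.00), and 3 fell without uninvolved 1, without 3+6, or without livers 12 and 3+6. On leaving out livers 1, 5 and 7, 3 rose. Apart from Noct, Per1 rose by 1.88 (SE 0.42) and Cry1 fell by 1.35, while Arntl (-0.42), Per2 (0.46) and Dbp (1.85) did not pass. The time of day of collection is not given in the labels.

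Markers of other liver cells changed in a cell-specific pattern (plot of lists by sample). Kupffer cell genes fell in 8 of 10 members and rose in 0 (median -0.85), and their summed level ran from 526 to 700 CPM in vehicles and from 351 to 570 in uninvolved samples. Clec4f, a Kupffer cell lectin, fell by 1.07 (SE 0.12), from 98.8 to 127 CPM to 38.6 to 69.4 CPM. Timd4, of long-lived residents, fell by 2.91 (SE 0.21), from 5.25 to 8.10 CPM to 0.503 to 1.25 CPM. Cd5l (-0.24, adjusted p 0.201) and the pan-macrophage receptor gene Csf1r (-0.19) did not pass.

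Genes of lipid-associated and recruited macrophages moved the other way. Of 14 members 13 rose and 0 fell (median 1.71), 12 without overlap, and the summed level ran from 78.4 to 165 CPM in vehicles and from 225 to 414 in uninvolved samples. Trem2, the lipid receptor that names these cells, was at 0.532, 0.789 and 1.11 CPM in vehicles and at 7.55, 6.88, 5.54, 11.8 and 6.88 CPM in uninvolved samples (3.24, SE 0.25, adjusted p 3.68e-08). Itgax, Cx3cr1 and Cd63 rose by 3.27, 3.17 and 3.59, and the monocyte receptor gene Ccr2 by 1.38. The counts were 13 higher also without livers 1, 5 and 7 and without livers 12 and 3+6.

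Stellate cell and fibrosis genes rose in 16 of 20 members and fell in 1 (median 1.83), with summed levels of 373 to 638 CPM in vehicles and 804 to 1250 in uninvolved samples. Col1a1, the main chain of scar collagen, was at 3.23, 3.44 and 5.93 CPM in vehicles and at 33.4, 16.5, 19.5, 32.4 and 78.8 CPM in uninvolved samples (3.22, SE 0.38, adjusted p 6.25e-06). The receptor gene Pdgfra rose by 2.30 (SE 0.16), with a tight uninvolved range of 39.6 to 49.9 CPM over 6.18 to 12.4 CPM. The myofibroblast markers Acta2 (0.31, adjusted p 0.219) and Tagln (0.02) did not pass. Lrat, the vitamin A enzyme of quiescent stellate cells, fell by 0.49, a call lost without uninvolved 12, 3+6 or 7 or vehicle 1, 4, 6 or 7. Of 35 tested collagen genes 24 rose and 3 fell (median 1.39).

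Bile duct genes rose in all 9 tested of 10 members (median 2.05), 8 without overlap. With the tumor-labelled library among the vehicles 4 of the 9 were called higher. Krt19, a duct keratin, was at 0.313 to 1.33 CPM in vehicles and at 4.66, 2.33, 2.04, 5.01 and 3.46 CPM in uninvolved samples (2.05, SE 0.34), and Epcam rose by 2.53 (SE 0.25). Endothelial genes had a median of 0.01, with 4 of 17 higher and 5 lower. Leaving out uninvolved 3+6, vehicle 2 or vehicle 4 left 2 higher, and leaving out uninvolved 1 left 3 lower. Without livers 1, 5 and 7, 6 were higher and 3 lower, and without livers 12 and 3+6, 2 were higher and 6 lower. Cd34, of capillaries and arteries, rose by 2.71 (SE 0.38) and Lyve1 by 1.38, while the Wnt ligand gene Wnt2 of central vein endothelium fell by 1.21 (SE 0.18). Stab1 (0.07) and Plvap (0.07) did not pass.

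T and NK cell genes rose in 8 of 9 tested members (median 1.36; 5 without livers 12 and 3+6) at low levels, with sums of 3.21 to 5.10 CPM in vehicles and 6.79 to 16.4 in uninvolved samples. Cd8a was at 0.142 to 0.532 CPM in vehicles and at 1.31, 2.74, 1.04, 1.72 and 1.2 CPM in uninvolved samples (2.27, SE 0.39), and Ccl5 rose by 2.49, whereas Cd4 did not pass (-0.38). Of 8 tested B and plasma cell genes 2 rose, and the rise of Igha (1.94) was lost without 3+6 (1.02, adjusted p 0.0579). Of 4 tested neutrophil genes 1 rose, of 4 mesothelial genes 2 rose (1 without uninvolved 1, uninvolved 3+6 or vehicle 4), of 7 erythroid genes 2 fell (5 without uninvolved 12, and 6 without livers 12 and 3+6), and none of the 2 pancreatic acinar genes and 1 adipocyte gene tested passed. The acinar marker Ptf1a and the neutrophil marker Ly6g had 0 counts in every sample of both groups. Of 5 adipocyte markers, Adipoq, Lep, Plin1 and Retn averaged at most 0.146 CPM in both groups. Cfd averaged 1.28 CPM in vehicles and 3.28 in uninvolved samples and did not pass (1.36, adjusted p 0.127), but passed without uninvolved 3+6 (1.68, adjusted p 0.0372) or vehicle 7 (1.96, adjusted p 0.0385). The part of fat cells in the levels of Cidec and Lpl was not tested.

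**Figure D5:**
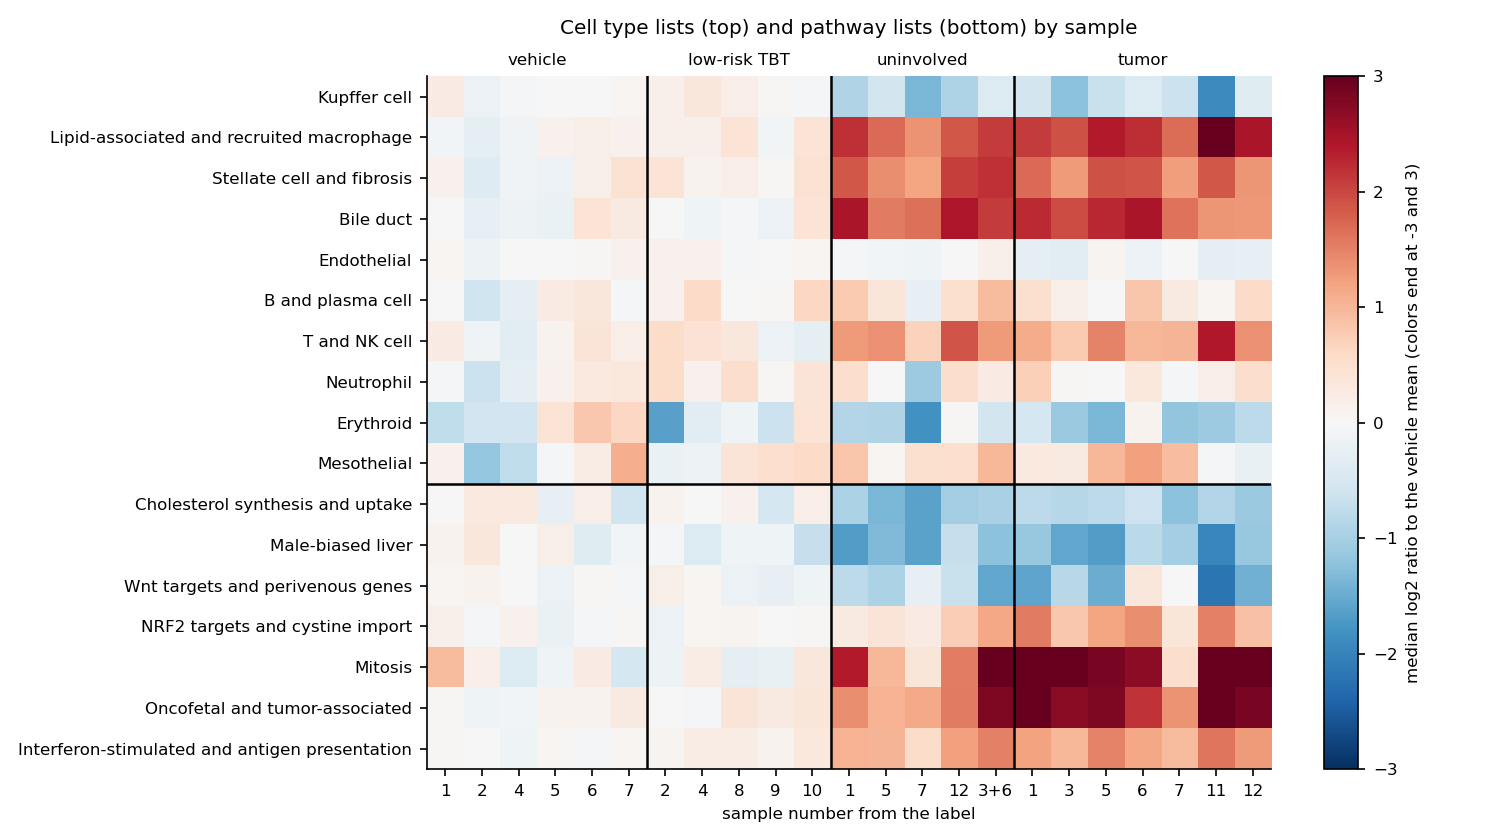
Median log2 ratio of list members to the vehicle mean (CPM + 0.1) in vehicle, low-risk, uninvolved and tumor samples, for cell type lists above and pathway lists below the line. Uninvolved samples lie clear of vehicles and low-risk livers in the Kupffer cell, macrophage, stellate cell, bile duct and T and NK cell rows, their mitosis row ranges from 0.36 in liver 7 to 3.47 in 3+6, and the tumors are shown without a test.

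Exposed livers labelled low-risk served as a second reference. The same 5 uninvolved samples enter both comparisons, which are therefore not independent. Against 5 low-risk livers 8561 of 16338 genes (52.4%) passed, 4520 higher (27.7%) and 4041 lower (24.7%). Cholesterol genes were lower in 22 of 24 (median -1.21), male-biased genes in 9 of 15 (-1.08) and Kupffer cell genes in 9 of 10 (-1.0). Mitosis genes were higher in 20 of 21 (2.38), macrophage genes in 13 of 14 (1.80), stellate cell genes in 16 of 20 (1.47) and bile duct genes in 9 of 9 (2.07). H19 reached 7.35 CPM in 1 low-risk liver, above the lowest uninvolved sample (7.06 CPM), and its difference was 6.14 (adjusted p 0.00173). Slc7a11 likewise reached 2.14 CPM in a low-risk liver, close under the lowest uninvolved sample (2.44 CPM). Gpnmb, at 0.271 to 1.11 CPM in low-risk livers, and Hsd3b5, at 93.4 to 382 CPM, differed by 6.44 and -4.71. Of 21 clock genes 2 were higher and 2 lower, and Cry1 did not pass (-0.41, adjusted p 0.339).

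Broad gene classes moved with the choice of livers. Of 2022 long noncoding RNA genes tested 894 were called higher and 135 lower (median 0.78). Without livers 1, 5 and 7, 157 were higher and 259 lower (median -0.00), whereas the median was 1.09 without livers 12 and 3+6. The livers had been split along their own long noncoding share, so a shift of this class follows from the split and is no separate result. Clustered histone genes ran opposite, with 16 of 42 higher and 1 lower (median 0.38), 30 higher without livers 1, 5 and 7, and 3 higher without livers 12 and 3+6. Protein-coding genes had a median of -0.00 (4018 higher and 3946 lower of 13583). Cytosolic ribosomal protein genes were lower in 55 of 80 and higher in 2 (median -0.41), and under total counts alone in 33 and 15 (median -0.09).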

How the data were processed

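RNA of whole liver was sequenced as stranded total RNA, per the labels' protocols. The authors deposited whole-number counts per gene, made with featureCounts and adjusted between batches with ComBat-seq, per the file name. Trim Galore, HISAT2 and the build mm10 stand in the submitters' processing notes, and the strand setting is not given in the sources used here. Adjusted counts are not raw counts, and adjustment can change the spread within groups. Of 55536 gene identifiers, 55450 matched GENCODE M21.

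Libraries 3 and 6 of the uninvolved group were summed. Genes kept by filterByExpr were compared by a robust fit in edgeR 4.0.16 under R 4.3.3 (TMM factors, quasi-likelihood test, 1 fit over vehicle, low-risk and uninvolved samples), with Benjamini-Hochberg adjustment at 0.05. DESeq2 1.42.0, other scalings, filters, sample sets and a replicate block were alternatives. The test was also run on simulated counts in which few genes changed. Most genes passed in the present data, so that run does not bear on the calls given here. Named genes were the 10 largest rises and 10 largest falls with a mean of at least 5 CPM and no overlap (no Gm or Rik symbols, at most 1 Mup each way), the first 2 members of each of 28 pathway lists, and the member of smallest adjusted p of each of 40 lists. Other members given as examples were chosen after their values were seen. The members and lists were chosen with earlier results of these data known. Some members of the lists are counted but not reported by name here.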

Additional observations from a re-analysis of the deposited data

Results flagged for a closer look

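Among 208 groups of values looked at for a sample far from the rest, 12 had one, and chance marks about 1 group in 20. In the sample 3+6, Nqo1 was at 22.9 CPM (8.26 to 10.6 in the other uninvolved samples), Slc7a11 at 7.91 (2.44 to 3.28) and Cdkn2a at 0.541 (0.149 to 0.212). Csf3r, a neutrophil receptor gene, was at 2.68 CPM in uninvolved liver 7 (3.92 to 4.51 in the others).

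Among vehicles, vehicle 1 was low in H19 (0.117 CPM, others 0.391 to 0.543) and Itgax (0.74, others 1.21 to 1.42), and vehicle 7 in Cd163 (13.1, others 21.6 to 26.4) and Per2 (2.3, others 7.24 to 9.87). Vehicle 5 was high in Cdkn1a (6.44, others 0.888 to 1.63) and Ezh2 (4.79, others 3.09 to 3.61). Vehicle 4 was low in Cyp4a12a (66.2, others 126 to 157) and vehicle 2 in Gpc3 (1.14, others 2.11 to 2.67).

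The tumor-labelled vehicle library, which was left out of the main comparison, lay above every vehicle in 10 of the 10 genes with the largest rises and below every vehicle in 9 of the 10 with the largest falls.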

How the results depend on the processing

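Of 104 genes named by rule, 101 were tested and 77 passed, and 63 kept their direction and side of the threshold in every setting run. With total counts alone, 8176 genes were higher and 1728 lower, and Hnf4a was at 0.30. With the tumor-labelled library among the vehicles, 6019 genes passed, 3122 of them higher, and Cyp2a4 was at -0.06. Calls lost there included Slc7a11 (adjusted p 0.838), Cdh1 (0.0959), Hamp (0.238), Eda2r (0.213) and Ccl5 (0.0611). Lists with fewer members higher there included bile duct (4 of 9), T and NK cell (4 of 9) and stellate cell (11 of 20). NRF2 genes were higher in 6 of 19 and MAPK genes in 4 of 18. Macrophage genes stayed higher in 12 of 14 and cholesterol genes lower in 21 of 24. The cause was not tested. Leaving out 1 sample at a time gave 8490 to 10014 genes, 4624 to 5459 higher and 3775 to 4555 lower, and 7595 to 9255 against low-risk livers. DESeq2 called 9610 genes. Without a filter on low counts 10953 of 34656 genes passed, 6702 higher and 4251 lower. Thinning all libraries to the smallest total left 9026. Numbers 1, 5, 6 and 7 occur in both groups. Deviations from the group means correlated at -0.005, 0.143, 0.101 and 0.069 between same-numbered samples. Vehicles 6 and 7 correlated most with their own number, and vehicles 1 and 5 with another. The numbers were not taken to pair samples. With a replicate block over them 7513 genes passed, against 7879 in the same samples without it.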

Other observations

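The classes below stand beside 31.2% higher and 26.5% lower among all genes. Chemokine ligand genes, which draw leukocytes into tissue, rose in 12 of 18 tested members and fell in 2 (median 1.43). Their summed levels overlapped, at 308 to 513 CPM in vehicles and 397 to 424 in uninvolved samples. Of 18 tested immunoglobulin genes 3 rose, a share below that of all genes, and 0 fell (median 0.54). Without livers 12 and 3+6, 1 rose. Of 32 tested genes of the Cyp2 family 20 fell and 5 rose (median -0.72). The 13 protein genes of the mitochondrial genome split into 6 higher and 5 lower, while all mitochondrial genes together took a larger share of counts in every uninvolved library.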
